A study of Mus musculus with 6 samples.

Results

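The genes described here carry the interferon response and class I antigen presentation, 46 genes chosen by name and found on the arrays by their gene symbol. Their transcripts were compared between 3 BMP4 samples and 3 control samples of the mouse line C3H10T1/2, fibroblast-like mesenchymal cells able to become fat, cartilage, bone or muscle. Cells of the BMP4 group received 50 ng/ml BMP4, a ligand of the bone morphogenetic protein family, while proliferating, and the control group received no treatment. Total RNA of both groups was taken past confluence, and each sample was read on 1 single-colour array of 45101 probe sets. The labels name no transgene, clone or second agent, and do not say whether each replicate was its own culture. The p-values therefore measure the spread of these 6 samples alone, and it may be technical. The series addresses which genes BMP4 regulates as these cells commit to the adipocyte lineage.

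Interferons are secreted proteins, and cells release those of type I on sensing viral nucleic acid. Type I interferons act through the receptor chains Ifnar1 and Ifnar2, and interferon gamma through Ifngr1 and its partner chain. Both receptors use Janus kinases and Stat factors, which with the interferon regulatory factors (Irf) switch on antiviral genes, GTPases and the genes of class I presentation. In that last pathway the proteasome cuts proteins to peptides, Tap1 and Tap2 carry them into the endoplasmic reticulum, and tapasin loads them on the H2 heavy chain with beta-2 microglobulin. Fibroblast-like cells express many of these genes at a low level without added interferon.

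Of the 46 members, 44 had a probe set with 1 gene symbol, 86 such probe sets in all, among 18193 genes named this way on the array. Isg15, a ubiquitin-like protein, lay only on a probe set with several symbols and is given no value, and Ifi44 had no probe set in the annotation used. The antiviral GTPases Mx1 and Mx2, the immunoproteasome subunit Psmb8 and the ubiquitin ligase Trim25 were below the filter on low signals. Their highest signals were 27.1, 4.6, 24.9 and 23.1, all under 29.1, the highest signal of the bacterial control probe sets on any array, which is used here as the background level. The remaining 40 members were tested, 31 of them above background on all 6 arrays.

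BMP4-treated cells had lower transcript signals for 7 of these 40 members and higher signals for 0. The members that fell were the transcription factors Irf1 and Stat2, the GTPases Gbp2 and Iigp1, the ADP-ribosyltransferase family gene Parp14, the peptide transporter subunit Tap2 and the class I heavy chain gene H2-D1. They fell by 0.34 to 1.10 on the log2(signal + 16) scale, on which every log2 change below is given and which understates changes of dim genes. The test was limma, with p-values adjusted over all 27022 probe sets kept, and a gene was called at an adjusted p under 0.05. The 7 lower members are 17.5% of those tested, against 5.66% called lower and 5.03% called higher among all 12966 genes tested. That share includes Parp14, which passed the filter through its control arrays only, and H2-D1, which was called on its brightest probe set only. With a filter at the 60th percentile, where Parp14 was not tested, 6 of 29 members and 8.24% of all genes were lower. At an unadjusted p under 0.05, 11 members were lower and 1, Ifngr1, was higher, against 1556 lower and 1675 higher among all genes. The median log2 change was -0.04 over the members and 0.03 over all genes, and 62.5% of the members (25 of 40) were negative, against 44.9% of all genes. This lean depended on BMP4 replicate 3. Without that array the median was 0.03 over the members and 0.03 over all genes, and 19 of 39 members were negative. With any other array left out, 23 to 26 members were negative. With every array centred on its median, 8 members and 8.08% of all genes were lower, and 0 members and 2.78% of genes were higher. Leaving out control replicate 1 or control replicate 2 left 4 members lower, Irf1, Parp14, Tap2 and H2-D1. In these fits 3.85% and 3.7% of all genes were lower. In RNA from whole cultures, fewer cells that express a gene and less RNA of it in each cell cannot be told apart.

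**Figure D1:**
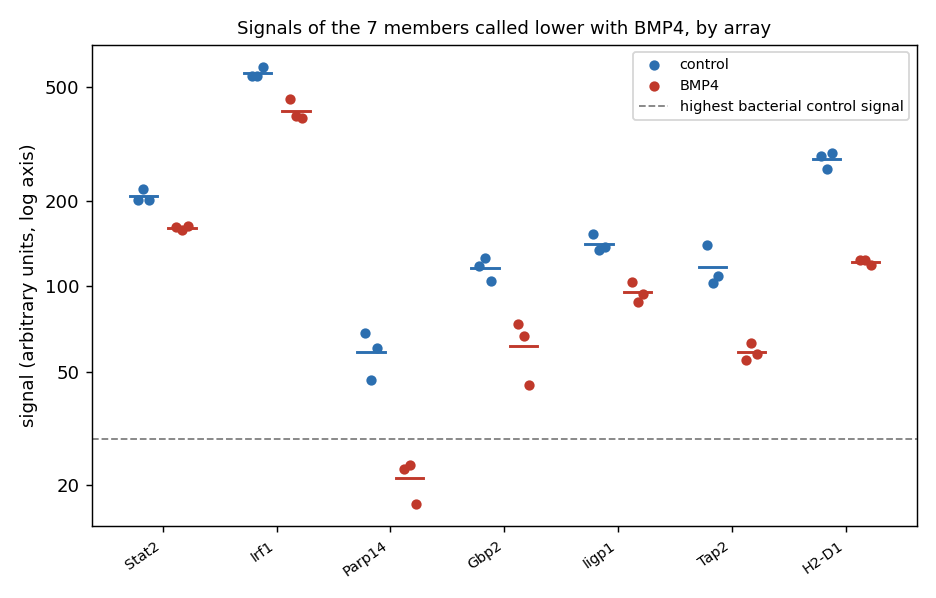
Signal of the 7 members called lower, on a log axis in arbitrary units, with 1 point per array, a bar at each group's mean and a dashed line at the background level of 29.1. For each gene the 3 BMP4 points lie below the 3 control points, and for Parp14 all 3 BMP4 points lie under the dashed line.

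All 3 BMP4 arrays lay below all 3 control arrays for 11 members (27.5%), against 14.5% of all genes tested. The reverse order held for 0 members, against 16.3% of all genes. The 11 were the 7 called members and Irf9, Igtp, Psmb10 and Tapbp, which were not past the test. Parp14, which is among the 11, passed the filter on low signals through its control arrays only, as its BMP4 signals alone would have been too low. The BMP4 group also had slightly more probe sets above background, with 56% to 59% of probe sets against 54.4% to 55.7%.

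**Figure D2:**
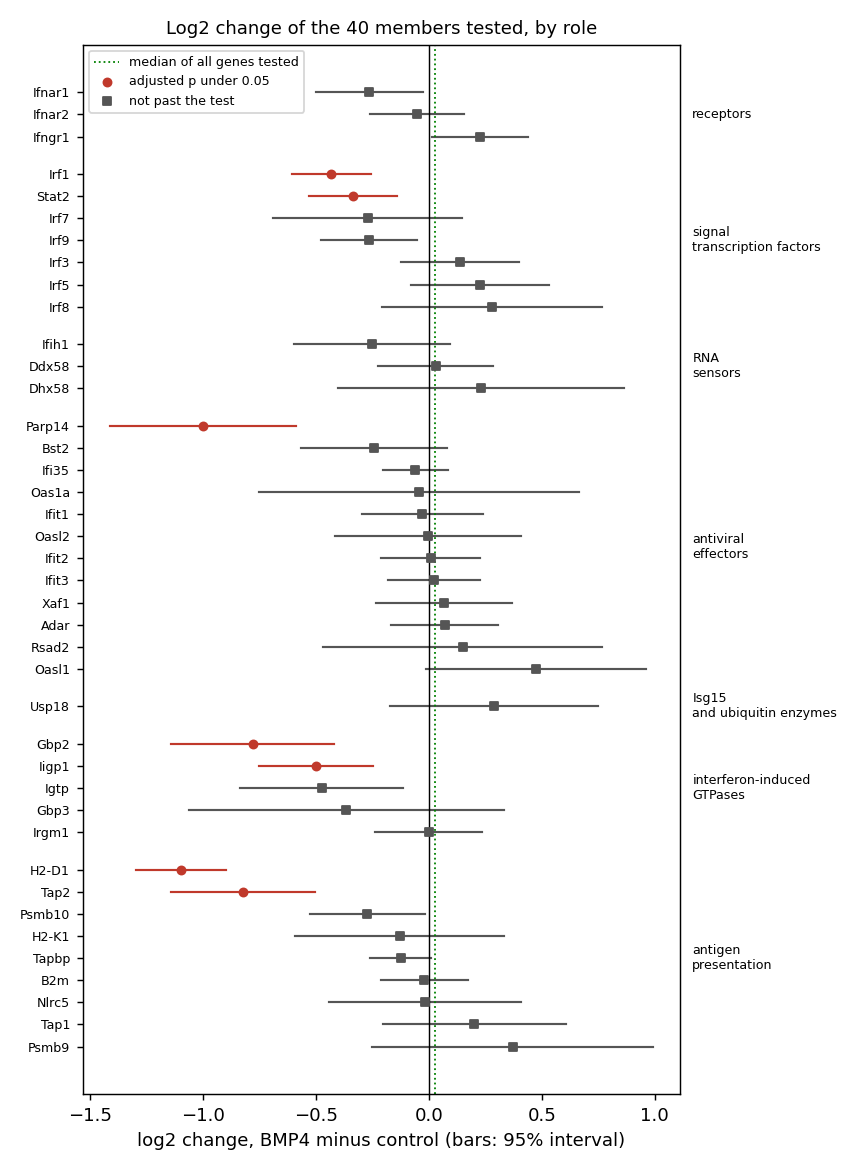
Log2 change (BMP4 minus control) of the 40 members tested, grouped by role, with 95% intervals from limma; red circles passed an adjusted p of 0.05 and grey squares did not. The 7 red circles all lie left of 0, from -1.10 for H2-D1 to -0.34 for Stat2, and the dotted line marks the median of all genes, 0.03.

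The 3 receptor chains were not past the test. Ifnar1, the signalling chain of the type I receptor, had signals of 258, 235 and 315 with BMP4 against 297, 345 and 333 in controls. These ranges overlap, and the log2 change was -0.26 ± 0.11 (SE, limma adjusted p = 0.171). Without BMP4 replicate 3 it was called lower (log2 -0.38, adjusted p = 0.0441). Ifngr1, the ligand-binding chain of the interferon gamma receptor, had signals of 318, 359 and 335 with BMP4 against 260, 329 and 272 in controls. Its groups also overlap, at a log2 change of 0.23 (95% interval 0.01 to 0.44, adjusted p = 0.194). Ifnar2, the other type I chain, gave -0.05 (95% interval -0.26 to 0.16).

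Of 7 signal transcription factors 2 fell (28.6%, against 5.66% of all genes) and 0 rose (against 5.03%). Irf1, which switches on class I and GTPase genes after interferon gamma, had signals of 456, 396 and 390 with BMP4 against 547, 549 and 592 in controls. The highest BMP4 array lay well under the lowest control array, and the log2 change was -0.43 ± 0.08 (SE, adjusted p = 0.00543). Without the intensity trend in the fit, the adjusted p of Irf1 was 0.0532. Stat2, which acts with Irf9 in the complex that answers type I interferon, had signals of 162, 158 and 163 with BMP4 against 201, 220 and 201 in controls. The groups are apart, but the change was small, at -0.34 ± 0.09 (adjusted p = 0.0382). That call was lost when any 1 of the 6 arrays was left out (adjusted p 0.0655 to 0.156) with a replicate block (0.0781), with quantile normalization (0.056) and without the intensity trend (0.0726), so that 5 of 14 alternative fits kept it. A second Stat2 probe set gave a like value of -0.34 that was not past the test (adjusted p = 0.251).

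Irf9, the DNA-binding subunit of the same complex, had 202 ± 22.1 with BMP4 and 245 ± 12.1 without it (SD, n = 3), a log2 change of -0.27 (adjusted p = 0.128; 0.0485 with arrays centred on their medians). Irf7, which amplifies type I interferon output, gave -0.27 (adjusted p = 0.442). Irf8, a factor best known from myeloid cells, had signals of 37.3, 33 and 44.5 with BMP4 against 43, 19.4 and 26.3 in controls, close to background and overlapping. Its log2 change was 0.28 (95% interval -0.21 to 0.77, adjusted p = 0.499). Irf3, which acts right after viral sensing, gave 0.14 on its brightest probe set and -0.44 on a dimmer one (adjusted p = 0.547 and 0.0659), so its direction depends on the probe set. The brightest carries the suffix x_at, which marks probes that can also match other transcripts. On the dimmer one, without that suffix, all BMP4 arrays lay below all control arrays. Irf5 gave 0.23 (adjusted p = 0.373).

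None of the 3 cytoplasmic RNA sensors passed the test (limma, with 0 at an unadjusted p under 0.05). Ifih1, a sensor of long double-stranded RNA, had signals of 62.1, 57 and 51.3 with BMP4 against 78.2, 76.8 and 58.4 in controls. Its log2 change was -0.25 (95% interval -0.60 to 0.09, adjusted p = 0.376), with overlapping groups. Ddx58, also called RIG-I, gave 0.03 (95% interval -0.22 to 0.28). Dhx58, a regulator of both sensors, spread widely, at 89.2, 51.5 and 29.4 with BMP4 against 42.9, 30.3 and 57.3 in controls (log2 0.23, adjusted p = 0.688).

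Of 12 antiviral effectors tested 1 fell (8.33%, near the 5.66% of all genes) and 0 rose (against 5.03%). Parp14, a macro-domain ADP-ribosyltransferase, had signals of 22.8, 23.6 and 17.1 with BMP4 against 68.4, 46.9 and 60.6 in controls. Its BMP4 signals were all under background, so the fold change can be bounded on the BMP4 side only. The geometric mean of the control signals was 1.99-fold above 29.1, with no allowance for the spread of the controls. The fitted log2 change was -1.00 ± 0.19 (SE, adjusted p = 0.0065), which depends on the added 16 and is no bound. With no filter on low signals its adjusted p was 0.0307. Parp14 passed the filter through its control arrays only. A second probe set of the gene, below the filter, overlapped at 4.37 ± 1.3 with BMP4 and 5.17 ± 1.33 without it (SD, n = 3). Without Parp14 the number of lower members is 6, and no antiviral effector is called. The classical type I interferon targets of the Ifit family, which bind foreign RNA, stayed within 0.03 of 0. Ifit1 had signals of 117, 117 and 98 with BMP4 against 124, 109 and 107 in controls (log2 -0.03, 95% interval -0.30 to 0.24). Ifit2 gave 0.01 (95% interval -0.21 to 0.23) and Ifit3 gave 0.02 (-0.18 to 0.22). Oasl1, an oligoadenylate synthetase-like protein, had the largest positive change of this role, at 88.2, 84.5 and 68.6 with BMP4 against 69, 66.1 and 31.5 in controls. That difference rests on wide, overlapping groups (log2 0.47, 95% interval -0.01 to 0.96, adjusted p = 0.237).

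The other effectors ranged from -0.24 for Bst2, which tethers budding virus to the cell surface, to 0.15 for Rsad2, also called viperin. Adar, which edits double-stranded RNA, gave 0.07, Xaf1, a pro-apoptotic factor, 0.07, and Ifi35 -0.06. Oas1a and Oasl2 gave -0.05 and 0.00, both with signals near background on some arrays. Usp18, the protease that removes Isg15 from its targets, was the 1 gene tested among the Isg15 and ubiquitin enzymes. It had signals of 28.3, 44.7 and 37.1 with BMP4 against 23.5, 36.4 and 22 in controls, which overlap (log2 0.29, adjusted p = 0.46).

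Of 5 interferon-induced GTPases 2 fell (40%, against 5.66% of all genes) and 0 rose (against 5.03%). All 5 log2 values were below 0. However, Irgm1 turned positive with quantile normalization and when any of BMP4 replicates 1 and 3 and control replicate 1 was left out. Gbp3 turned positive without BMP4 replicate 3. Gbp2, a guanylate-binding protein that coats vacuoles of intracellular microbes, had signals of 73.7, 66.7 and 44.9 with BMP4 against 118, 126 and 105 in controls. Every BMP4 array was lower than every control array, at a log2 change of -0.78 ± 0.16 (SE, adjusted p = 0.0126). A second Gbp2 probe set, with the suffix x_at, also fell (-0.92, adjusted p = 0.00413), with signals of 32.7 ± 2.94 and 76.2 ± 9.31 (SD, n = 3). The call of the brighter probe set was lost without control replicate 1 (adjusted p = 0.0539) or control replicate 2 (0.0606). Iigp1, an immunity-related GTPase, had signals of 103, 87.7 and 94.2 with BMP4 against 153, 134 and 137 in controls. The groups do not overlap, and the change was -0.50 ± 0.11 (adjusted p = 0.0199). The Iigp1 call was lost without any 1 array except BMP4 replicate 1 (adjusted p 0.051 to 0.0875), and a dimmer probe set gave -0.53 (adjusted p = 0.129).

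Igtp, a further immunity-related GTPase, had signals of 63.3, 91.6 and 55.7 with BMP4 against 101, 97.6 and 108 in controls (log2 -0.48, adjusted p = 0.105; without BMP4 replicate 2, -0.65 and 0.028). Irgm1, which regulates the other family members, had signals of 293, 338 and 257 with BMP4 against 328, 290 and 269 in controls. Its value of 0.00 (95% interval -0.24 to 0.24) differs in size from those of Gbp2 and Iigp1, but the difference between genes was not tested. Gbp3 gave -0.37 with a wide interval (-1.06 to 0.33), and BMP4 replicate 3 at 21.7 lay far from the 87.5 and 73.1 of the other BMP4 arrays.

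Of 9 antigen presentation genes tested 2 fell (22.2%, against 5.66% of all genes) and 0 rose (against 5.03%). Tap2, the second subunit of the peptide transporter, had signals of 54.9, 63.1 and 57.9 with BMP4 against 139, 103 and 108 in controls. The groups are well apart, at a log2 change of -0.82 ± 0.14 (SE, adjusted p = 0.00437), and Tap2 was called in all 14 alternative fits. Its partner Tap1 had 62.9 ± 13 with BMP4 and 52.5 ± 9.86 without it (SD, n = 3; log2 0.20, 95% interval -0.20 to 0.60, adjusted p = 0.565). Tapbp, which encodes tapasin, gave -0.13 (adjusted p = 0.259), and the immunoproteasome subunit Psmb10 gave -0.27 (adjusted p = 0.19). Psmb9, another immunoproteasome subunit, had signals of 24.1, 37 and 27 with BMP4 against 14, 9.8 and 38.6 in controls, mostly at background (log2 0.37, adjusted p = 0.481). Beta-2 microglobulin, the light chain shared by class I molecules, was at 4008 ± 330 and 4060 ± 222 on 1 B2m probe set and differed little on either (log2 -0.02, 95% interval -0.21 to 0.17, and 0.05, 95% interval -0.16 to 0.27). Nlrc5, a transactivator of class I genes, was at background (24.9 ± 2.18 and 25.6 ± 4.92).

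H2-D1, a class I heavy chain gene, fell on its brightest probe set. That probe set read 123, 123 and 119 with BMP4 against 286, 259 and 294 in controls. The spread within each group was small, and the log2 change was -1.10 ± 0.09 (SE, adjusted p = 2.63e-05), called in all 14 alternative fits. The other H2-D1 probe sets that passed the filter did not show this. Of 9 H2-D1 probe sets with 1 symbol 4 passed the filter, and the 3 dimmer of these gave 0.18, 0.06 and 0.43 (adjusted p = 0.601, 0.93 and 0.279). A probe set below the filter read 4.2, 3.7 and 3.9 with BMP4 against 7.2, 18.8 and 23.6 in controls, all under background. The remaining H2-D1 probe sets below the filter were also under background on every array, and their groups overlapped. H2-K1, the second heavy chain gene, had 4 probe sets, and the 3 that passed gave -0.13, 0.07 and -0.12 (adjusted p = 0.765, 0.831 and 0.683). The probe sets of both genes that passed the filter carry the suffix x_at, by which the array maker marks probes that can also match other transcripts, and class I genes are alike in sequence and differ between mouse strains. Which class I transcript the brightest H2-D1 probe set reports was not tested. Without x_at probe sets H2-D1 was not tested, and the number of lower members was 6. The share of all genes in that count is not given.

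**Figure D3:**
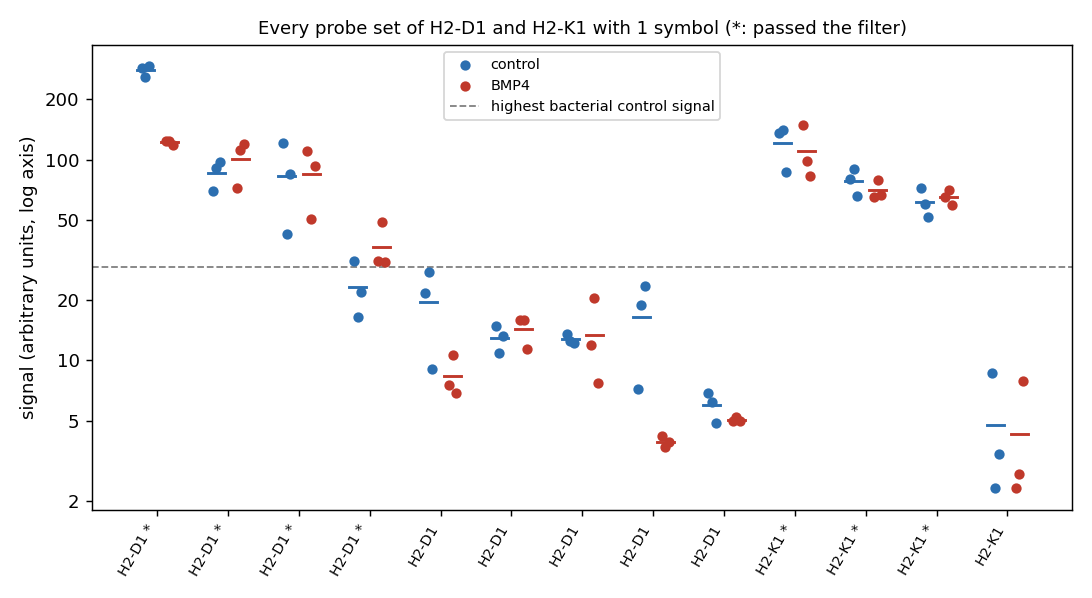
Signal of all 9 H2-D1 and 4 H2-K1 probe sets with 1 symbol, on a log axis in arbitrary units, ordered by brightness within each gene, with 1 point per array, bars at group means and the background level dashed. The leftmost H2-D1 probe set separates BMP4 (119 to 123) from control (259 to 294), while the other starred probe sets of both genes overlap.

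The start regions of the members were searched for the core letters of the 2 elements through which interferons act. The interferon-stimulated response element was searched as GAAANNGAAA (TTTCNNTTTC on the other strand) and the gamma-activated site as TTCNNNGAA, which reads the same on both strands. Windows of 300 bases, 250 before and 50 after a RefSeq start site (build GRCm38.p6), were at hand for 38 members. Of these, 14 (36.8%) held the response element core, against 3.99% of the 27025 genes with a window, and 11 (28.9%) held the gamma-activated core, against 9.55%. Matches may overlap each other, and a gene with several windows counts once. Among the 4 called members with a window, Stat2 and Gbp2 held the response element core, Irf1 held the gamma-activated core and H2-D1 held neither. Among 30 members tested and not called, 11 held the response element core and 9 the gamma-activated core. The windows of Irf1, Gbp2 and Stat2, which fell, and of Ifit1, which did not pass the test, are shown on the gene's strand with each match in capitals. All 4 genes lie on the plus strand. A match describes these letters only, not a working site. A window without a match may still hold a variant form of an element, as only these exact letters were searched.

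The Irf1 window, chr11:53769764-53770063, holds a gamma-activated core that starts 90 bases before the start site. The Gbp2 window, chr3:142620413-142620712, holds a response element core 59 bases before it, and that of Stat2, chr10:128270248-128270547, holds one 222 bases before it. The Ifit1 window, chr19:34640639-34640938, holds a pair of response element cores, 104 and 85 bases before the start site.
Irf1: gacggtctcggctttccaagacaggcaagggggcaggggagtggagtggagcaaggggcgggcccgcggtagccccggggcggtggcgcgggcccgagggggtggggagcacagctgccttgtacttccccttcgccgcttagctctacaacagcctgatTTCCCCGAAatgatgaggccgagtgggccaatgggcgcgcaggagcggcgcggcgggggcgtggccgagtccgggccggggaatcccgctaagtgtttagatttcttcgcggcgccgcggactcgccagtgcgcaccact
Gbp2: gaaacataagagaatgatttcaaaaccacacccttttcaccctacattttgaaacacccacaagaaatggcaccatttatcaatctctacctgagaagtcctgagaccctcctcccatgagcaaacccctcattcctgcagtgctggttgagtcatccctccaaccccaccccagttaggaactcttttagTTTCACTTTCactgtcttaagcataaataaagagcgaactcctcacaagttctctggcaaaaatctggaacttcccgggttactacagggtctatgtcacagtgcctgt
Stat2: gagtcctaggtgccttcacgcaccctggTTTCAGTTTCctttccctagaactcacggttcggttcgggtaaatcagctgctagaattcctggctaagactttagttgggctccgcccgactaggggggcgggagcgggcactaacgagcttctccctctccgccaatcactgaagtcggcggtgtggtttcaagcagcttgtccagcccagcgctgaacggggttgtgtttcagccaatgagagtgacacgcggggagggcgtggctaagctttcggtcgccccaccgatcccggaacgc
Ifit1: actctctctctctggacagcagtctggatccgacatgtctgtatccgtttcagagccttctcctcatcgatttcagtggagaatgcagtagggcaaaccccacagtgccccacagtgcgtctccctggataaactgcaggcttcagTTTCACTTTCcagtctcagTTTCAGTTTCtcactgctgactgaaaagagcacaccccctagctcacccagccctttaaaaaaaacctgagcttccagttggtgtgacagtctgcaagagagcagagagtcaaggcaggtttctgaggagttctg

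In a list of 51 further interferon-stimulated genes, 32 were tested, of which 8 fell (25%, against 5.66% of all genes) and 1 rose (3.12%, against 5.03%). The median log2 change of the list was -0.23, with 25 genes negative and 7 positive, and the list was chosen with earlier results known. The 3 largest called falls were Ifi202b, Ifi47 and Trim30a. Ifi202b, a cytoplasmic DNA-binding protein of the p200 family, had signals of 324, 298 and 316 with BMP4 against 720, 740 and 649 in controls. The groups are far apart, and the log2 change was -1.13 ± 0.07 (SE, adjusted p = 5.99e-06). Ifi47, an immunity-related GTPase, had 284, 227 and 200 with BMP4 against 473, 489 and 490 in controls (log2 -1.00 ± 0.11, adjusted p = 0.000186). Trim30a, a tripartite motif protein, gave -0.66 (adjusted p = 0.0141), a call lost without control replicate 1 (0.0694) or control replicate 2 (0.0577). The 1 that rose was Lgals3bp, a secreted galectin-binding glycoprotein (log2 0.34, adjusted p = 0.0104), not called with arrays centred on their medians (0.1), without the intensity trend (0.0814) or without control replicate 2 (0.0505). The BMP4 arrays lay wholly below the control arrays at 16 of the 32 genes (50%, against 14.5% of all genes). Without the intensity trend or without control replicate 2, 5 of the list were lower, against 3.12% and 3.7% of all genes. With median centring 13 were, against 8.08% of all genes.

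**Figure D4:**
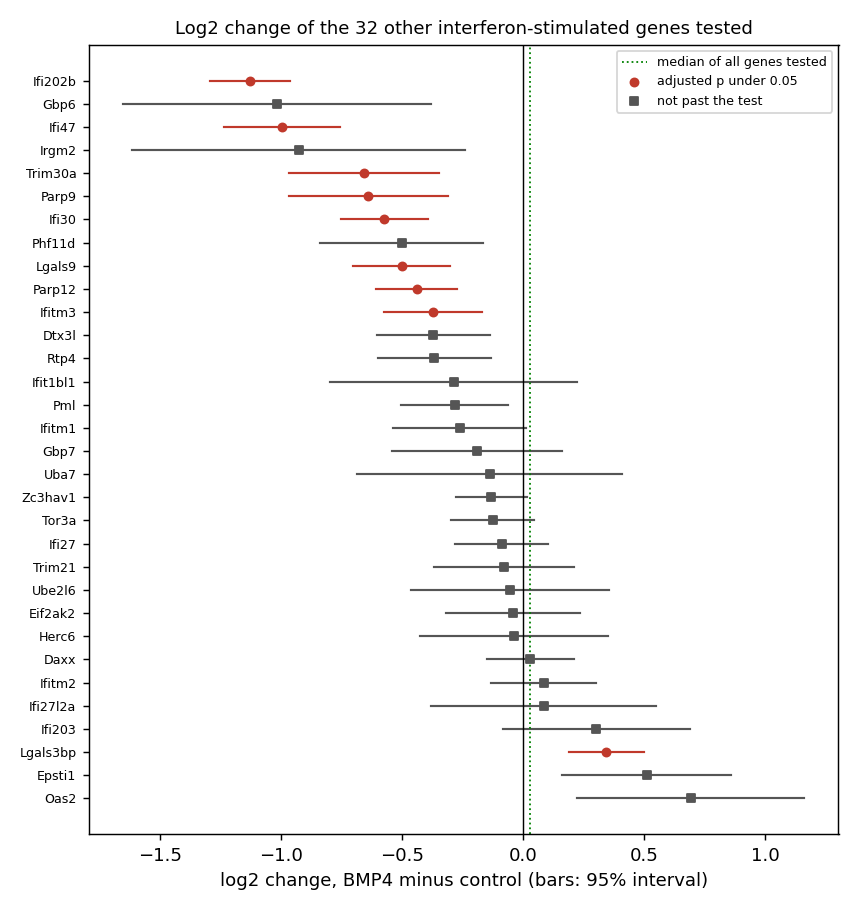
Log2 change (BMP4 minus control) of the 32 other interferon-stimulated genes tested, ordered by size, with 95% intervals from limma; red circles passed an adjusted p of 0.05 and grey squares did not. The 8 called falls run from -1.13 for Ifi202b to -0.37 for Ifitm3, and Lgals3bp at 0.34 is the 1 called rise.

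Among 18 further receptor, kinase and feedback genes tested 2 fell (11.1%, against 5.66% of all genes) and 0 rose (against 5.03%). Socs3, a feedback inhibitor of cytokine receptors that is induced by Stat3, had signals of 496, 512 and 382 with BMP4 against 1017, 747 and 798 in controls. The groups are apart (log2 -0.86 ± 0.13, adjusted p = 0.0016), and 2 further probe sets gave -0.62 and -0.89, both called. Jak1, a kinase of both interferon receptors, fell by 0.23 (adjusted p = 0.039), a call lost when any 1 array was left out (adjusted p 0.0855 to 0.115) and kept in 5 of 14 alternative fits. Socs1, the main feedback inhibitor of interferon gamma signalling, gave 0.18 (adjusted p = 0.619). Among 14 further nucleic acid sensing genes 2 fell (14.3%, against 5.66% of all genes) and 0 rose (against 5.03%). Log2 changes in this list ran from -1.31 to 0.85, and the genes at both ends were not called. Ifi204, a DNA sensor of the same family as Ifi202b, had 78.1, 93.5 and 83.8 with BMP4 against 231, 197 and 186 in controls, well apart (log2 -1.12 ± 0.12, adjusted p = 0.000145). Tlr2, a receptor of bacterial lipoproteins, fell by 0.47 (adjusted p = 0.028), and its call was lost without BMP4 replicate 3 or any 1 control replicate (0.0518 to 0.0972), with 8 of 14 alternative fits keeping it.

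Of 20 interferon ligand genes 10 were on the array with 1 symbol and 3 passed the filter, Ifnb1, Ifna1 and Ifnz, with 0 called in either direction (limma, 0 at an unadjusted p under 0.05). Ifnb1, the type I interferon of fibroblasts, had the smallest p, with 40.9, 60.3 and 40.5 with BMP4 against 38.4, 39.9 and 27.9 in controls (log2 0.29, adjusted p = 0.411). Its BMP4 arrays all lay above its control arrays, by a narrow margin. Of 13 further class I processing genes 2 fell (15.4%, against 5.66% of all genes) and 0 rose (against 5.03%). These were Psme1, a proteasome activator subunit (log2 -0.29, adjusted p = 0.043), and Tapbpl, a tapasin-related protein (-0.80, adjusted p = 0.0445), called in 7 of 14 and 7 of 13 alternative fits. Leaving out BMP4 replicate 2, BMP4 replicate 3 or control replicate 2 ended both calls, as did leaving out control replicate 3 for Psme1 and control replicate 1 for Tapbpl (adjusted p 0.0813 to 0.172). Psmb5, Psmb6 and Psmb7, the subunits of the standard proteasome that immunoproteasome subunits replace, gave 0.14, 0.16 and 0.18, none past the test. Of 8 class II presentation genes 0 fell (against 5.66% of all genes) and 1 rose (12.5%, against 5.03%). This was H2-Eb2, from 31 ± 18.3 to 71.8 ± 14.6 (SD, n = 3, log2 0.96, limma adjusted p = 0.04). Its call was lost without any 1 array except control replicate 3 and kept in 3 of 13 alternative fits. The class II transactivator Ciita was at background, at 27.1 ± 6.07 and 24.9 ± 9.45.

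**Figure D5:**
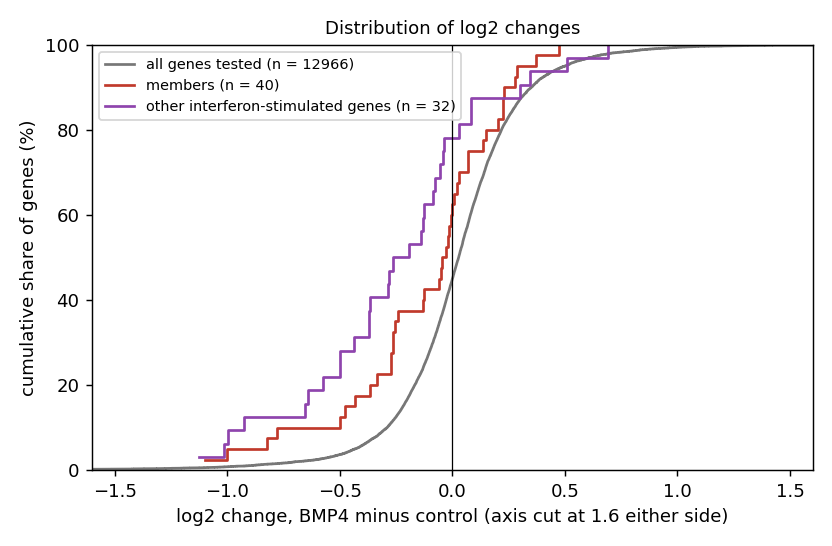
Cumulative share of genes (%) by log2 change (BMP4 minus control) for all 12966 genes tested, the 40 members and the 32 other interferon-stimulated genes; the axis is cut at 1.6 either side. The curves cross 50% at medians of 0.03, -0.04 and -0.23.

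Markers of the labelled cell type were present. All 10 mesenchymal markers were above background on every array, with summed signals of 46514 to 54860 with BMP4 and 43193 to 52915 without it. Of these 2 fell (20%, against 5.66% of all genes). They were Pdgfra (log2 -0.90, limma adjusted p = 6.34e-05) and Twist1 (-0.48, adjusted p = 0.044, lost without any 1 array except BMP4 replicate 2). Of 11 macrophage markers on the array 4 were above background on every array (Cd68, Csf1r, Adgre1 and Cd14) and 5 on none, and Ptprc, the pan-leukocyte marker, and Itgam did not exceed 6.6 and 16 on any array. Macrophage marker sums overlapped, at 498 to 683 with BMP4 and 479 to 534 without it, and 0 of the 6 tested were called (limma, 1 at an unadjusted p under 0.05). Sums of 6 dendritic cell markers (117 to 190 and 89.8 to 172), 9 lymphocyte markers (147 to 237 and 166 to 200) and 6 endothelial markers (147 to 245 and 234 to 259) overlapped as well, and their part in the members' changes was not tested. The receptor gene Tek fell (-0.69, adjusted p = 0.0167), a call lost when BMP4 replicate 3 or either of control replicates 1 and 3 was left out, while Pecam1, the defining endothelial marker, did not exceed 4.7.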

How the data were processed

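The authors deposited 1 linear signal intensity per probe set and array, and the submitters' processing notes name GCOS 1.3 as the software. Sources used here give neither scaling or background settings nor a genome build. Every array had a 2% trimmed mean of 150, so no scaling was added. The number of arrays, 3 per group, limits precision.

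After removal of 64 control probe sets, values were log2(signal + 16). Probe sets with a mean log2 above the 40th percentile (a signal of 23.5) were kept. limma 3.58.1 in R 4.3.3 (lmFit, eBayes with an intensity trend, two-sided) was run on all 27022, with Benjamini-Hochberg adjustment. The step was tested on simulated data. A gene was represented by its brightest kept probe set with 1 symbol. Probe sets with several symbols (932) or unnamed here (9160) named no gene.

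All members are accounted for. Values per array are given for called members and the extremes of each role, and of other lists up to 3 called genes, or the smallest p. Further genes were named after their values were seen. Members and lists were chosen with earlier results of these data known, so they are not independent support. Replicate numbers did not pair the arrays (correlations of deviations 0.01, -0.0026 and -0.07), so the fit has no block. Promoter windows come from RefSeq, GRCm38.p6, while the arrays' build is unknown.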

Additional observations from a re-analysis of the deposited data

How the results depend on the processing

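Alternatives were pseudocounts of 4 and 64, no filter, a filter at the 60th percentile, quantile normalization, median centring, no intensity trend, a replicate block and leaving out each array, and, chosen after seeing the data, no x_at probe sets and all of these for the other lists. The called members gave 97 values under these fits, 80 of them called. All 97 were negative. That sign was largely fixed in advance, as every BMP4 array of these members lay below every control array. Members not called gave 448 values, of which 3 were called and 34 had the other sign. No member was called higher in any fit. Without the intensity trend 1422 probe sets were called in place of 2464. Leaving out 1 array gave 1622 to 1996 called probe sets and 4 to 6 lower members, with 3.7% to 4.58% of all genes lower. Among the 31 or 32 other interferon-stimulated genes tested, leaving out 1 array gave 5 to 11 lower and 0 to 1 higher genes. Of all genes 3.54% to 4.25% were higher in these fits. In that list median centring gave 13 lower and 0 higher of 32, against 8.08% and 2.78% of all genes. No intensity trend gave 5 and 0 of 32, against 3.12% and 2.86%. The 60th percentile filter gave 10 and 2 of 24, against 8.24% and 7.48%. With a replicate block 6 members and 4.74% of all genes were lower, the call of Stat2 being lost, and 2090 probe sets were called. Counting all 63 kept member probe sets singly gave 8 lower. Of all 27022 kept probe sets 2464 were called, lower and higher together. At the 60th percentile filter Parp14 was not tested. A probe set near background, as for 9 of the 40 members on at least 1 array, gives only a weak bound on change.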
